A study of Homo sapiens with 76 samples.

Results

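TK6 cells exposed to thapsigargin (Thapsigargin-250 nM, 4 h, 2 biological replicates) were set against TK6 cells exposed for 4 h to its solvent, acetonitrile (vehicle control-Acetonitrile, 2 biological replicates). These 4 samples were chosen by their agent labels from 76 samples, which cover 29 treatments and 9 vehicle conditions with 2 replicates each. TK6 is a human B-lymphoblastoid cell line with functional p53, and all samples came from this 1 line in exponential growth. The readout was quantitative RT-PCR with TaqMan probes for 61 genes of TGx-DDI, a panel built to separate DNA damage-inducing (DDI) from non-DDI agents. Tunicamycin (Tunicamycin -2.5 microg/ml, 4 h, 2 replicates) and its solvent (vehicle control-EtOH, 2 replicates) served as the nearest comparison, since both agents act on the endoplasmic reticulum (ER).

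Thapsigargin inhibits SERCA, the pump that returns calcium from the cytosol to the ER, so that ER calcium stores empty and cytosolic calcium rises. Calcium-dependent chaperones of the ER then fail, unfolded proteins accumulate, and the sensors IRE1, PERK and ATF6 start the unfolded protein response, which slows translation and raises genes for folding and for ER-associated degradation. Tunicamycin reaches the same response by another route, because it blocks the first step of N-linked glycosylation. Neither agent attacks DNA directly. The classical readouts of this response, such as HSPA5, DDIT3 and spliced XBP1, are not among the 61 genes, and SEL1L is the panel gene closest to it. Of B-lineage genes only TNFRSF17 is on the panel, so cell identity could be checked against 1 marker only.

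A transcript level is given below as −ΔCq, the mean Cq of the reference genes HPRT and GUSB minus the Cq of the gene. Cq is the PCR cycle at which the signal crosses a threshold, so −ΔCq is on a log2 scale, a difference of 1 between samples corresponds to a 2-fold difference if every assay doubles per cycle, and levels of different genes cannot be ranked against each other. Panel Cq values in the 4 samples lay between 21.75 and 35.14, with a median of 26.19. TNFRSF17, a receptor of late B-lineage cells, was read in all 4 samples, with −3.43 and −3.68 in thapsigargin and −3.14 and −3.68 in the acetonitrile vehicle. By its mean level thapsigargin ranked 3 of the 38 conditions. The number of cells per sample is not known here, and a lower transcript level per cell cannot be told apart from fewer cells that make the transcript.

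Many deposited Cq values of the acetonitrile vehicle were not its alone. For 50 of the 61 genes the Cq of the acetonitrile vehicle was equal to the last digit to that of the EtOH vehicle with the same replicate number, in both replicates. SEL1L, for example, was listed at 26.42 and 26.56 cycles in both vehicles. The other 11 genes, C12orf5, CCP110, DCP1B, DDB2, HIST1H2BG, MDM2, PHLDA3, PPM1D, PRKAB1, TOPORS and TRIAP1, had their own values, which differed from the EtOH vehicle by −0.19 to 2.24 cycles. Their acetonitrile Cq was above the EtOH Cq in all 11 in replicate 1 and in 8 of the 11 in replicate 2. Replicate 1 of the acetonitrile vehicle also shared 19 values with replicate 1 of the MeOH vehicle, whereas neither thapsigargin sample shared more than 2 values with any other sample. Which sample the repeated values belong to is not known, and every result against the acetonitrile vehicle rests on them unless the gene is one of these 11.

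**Figure D1:**
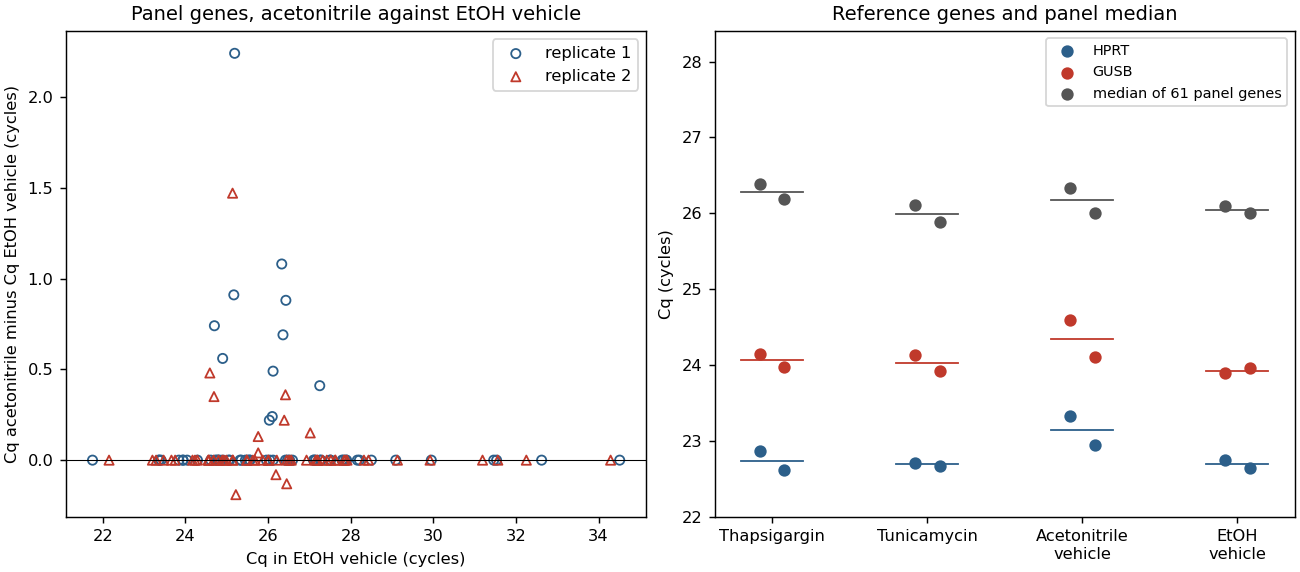
Left, the Cq of each of the 61 genes in the acetonitrile vehicle minus that in the EtOH vehicle (y, cycles) against its Cq in the EtOH vehicle (x, cycles), by replicate. Of the 61 genes, 50 lie exactly at 0 in both replicates. Right, Cq (cycles) of HPRT, GUSB and the panel median in each of the 2 samples per condition (points) with the mean (line). HPRT and GUSB are later in the acetonitrile vehicle, replicate 1 most of all.

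The reference genes, by contrast, were not repeated. HPRT crossed at 22.87 and 22.61 cycles in thapsigargin, 22.71 and 22.67 in tunicamycin, 23.33 and 22.95 in the acetonitrile vehicle and 22.75 and 22.64 in the EtOH vehicle. GUSB crossed at 24.15 and 23.97 cycles in thapsigargin, 24.13 and 23.92 in tunicamycin, 24.59 and 24.10 in the acetonitrile vehicle and 23.89 and 23.96 in the EtOH vehicle. Acetonitrile replicate 1 therefore had the latest reference genes of these 8 samples. The mean reference Cq of the acetonitrile vehicle exceeded that of the EtOH vehicle by 0.64 cycles in replicate 1 and by 0.23 in replicate 2, on average by 0.43. For the 50 genes with repeated values the 2 vehicles thus give 1 comparison with 2 reference levels, and every log2 difference from thapsigargin is shifted up by 0.43 against the EtOH vehicle, relative to the acetonitrile vehicle.

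Against the acetonitrile vehicle, 8 genes were higher in thapsigargin, 21 were lower and 32 did not pass the test (limma, adjusted p under 0.05 over 61 genes), so that 47.5% of the panel was called, 13.1% as higher and 34.4% as lower. The 8 higher genes were SEL1L, DAAM1, PTGER4, RAPGEF2, CBLB, ITPR1, B3GNT2 and LRRFIP2. The lowest called genes were HIST1H2BG, MEX3B, AMER1, E2F8 and E2F7. The median log2 difference over the 61 genes was −0.52, and the samples of the conditions did not overlap in 43 genes (70.5%). All 8 higher genes and 17 of the 21 lower ones belong to the 50 genes with repeated values, and the 11 genes with their own values gave 0 higher and 4 lower (0 higher and 5 lower at an unadjusted p under 0.05 in limma).

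The number of lower calls changed with the vehicle. For the 50 genes with repeated values the EtOH vehicle is not a separate vehicle, since the shift of 0.43 alone keeps every higher call and brings every lower gene nearer to 0. Against it 13 genes were higher and 7 lower (32.8% called, 21.3% higher and 11.5% lower), with a median of −0.13. Against the mean of the 7 vehicles other than acetonitrile and EtOH, 14 were higher and 13 lower, with a median of −0.06. The 7 include the MeOH vehicle, with the 19 repeated values in replicate 1. The 8 higher genes were also called higher against the mean of the 7. Of the 21 lower genes, 6 were called lower in all 3 comparisons, namely HIST1H2BG, MEX3B, AMER1, E2F8, E2F7 and TRIAP1, and 15 were not called against the EtOH vehicle. Against the mean of the 7, 12 of the 21 were called lower and 9 were not called. Without acetonitrile replicate 1 the counts were 8 higher and 11 lower. With the replicate number as a block, 8 were higher and 27 lower, 0 calls were lost and 6 were added, HIST1H1E, HIST1H2BB, HIST1H2BI, PHLDA3, SERTAD1 and TRIM22. Over the 4 fits that each left out 1 of the 4 samples, 16 of the 29 called genes kept their call and 13 lost it in at least 1 fit, 2 of them higher (ITPR1 and LRRFIP2) and 11 lower. The acetonitrile vehicle itself was higher than the mean of the 7 other vehicles in 24 genes and lower in 2.

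**Figure D2:**
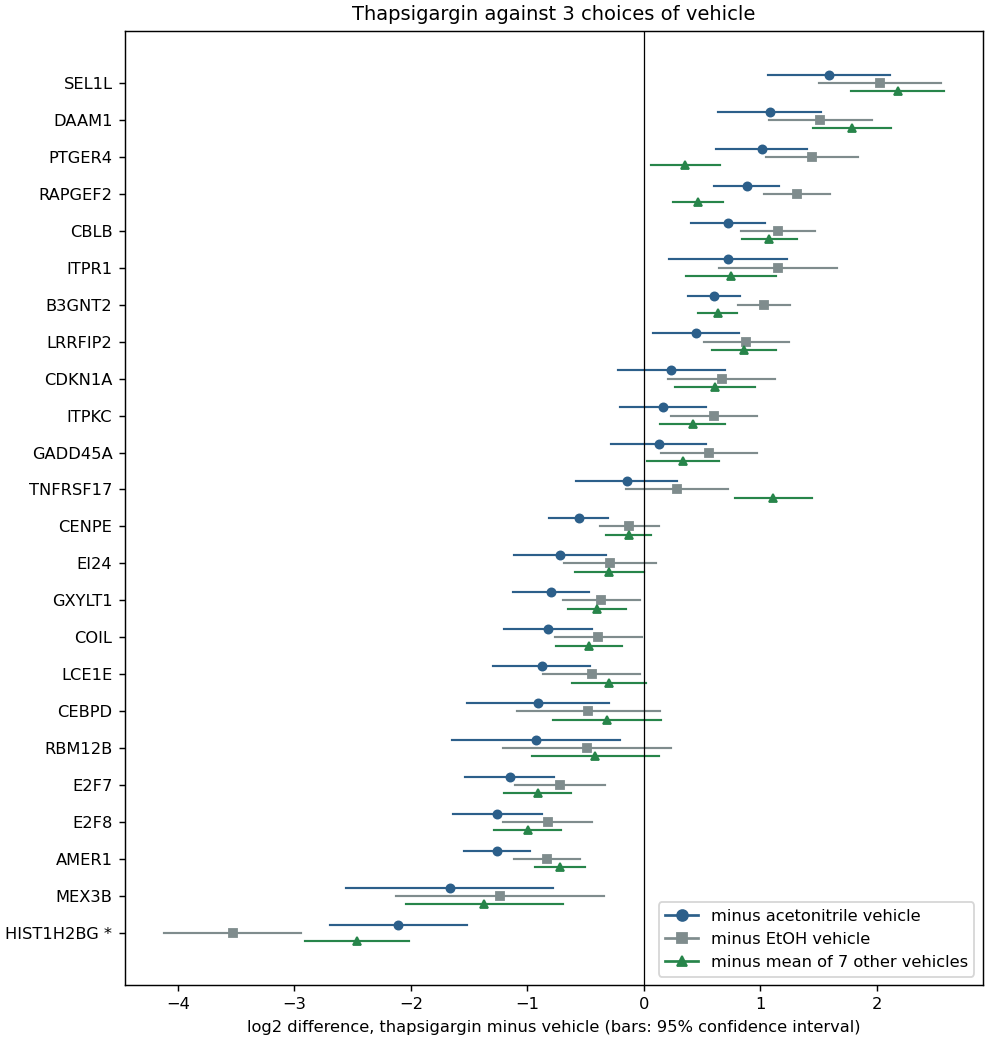
Log2 difference (x) of 24 named genes (y), thapsigargin minus the acetonitrile vehicle, minus the EtOH vehicle and minus the mean of the 7 other vehicles, with 95% confidence intervals from limma (2 samples per condition). An asterisk marks a gene whose acetonitrile Cq differed from its EtOH Cq. The 8 genes at the top lie right of 0 in all 3 comparisons, and for most of the lower genes the EtOH values are closer to 0.

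SEL1L, the adaptor that hands misfolded ER proteins to the ubiquitin ligase HRD1 for degradation, showed the largest rise. Its −ΔCq was −1.20 and −1.11 in thapsigargin, −0.98 and −1.01 in tunicamycin, −2.46 and −3.04 in the acetonitrile vehicle and −3.10 and −3.26 in the EtOH vehicle. Both thapsigargin samples lay above all 18 vehicle samples, of which the highest reached −2.46. The log2 difference from the acetonitrile vehicle was 1.59 ± 0.26 (SE, n = 2 each, limma adjusted p = 3.38e-06), a 3.02-fold rise. It was 2.03 against the EtOH vehicle and 2.18 against the mean of the 7 other vehicles. Among the 38 conditions only tunicamycin stood higher.

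The promoters of SEL1L and DAAM1, the genes with the largest and the next largest rise, are shown because the unfolded protein response acts through short DNA elements near start sites. Both lie on chromosome 14 (GRCh38.p14, sequence from RefSeq), and the 250 bases before the annotated start are given from 5′ to 3′ on the strand of the gene. SEL1L was read from chr14:81533854-81534103 on the minus strand and DAAM1 from chr14:59188417-59188666 on the plus strand. Capitals mark CCAAT, or its reverse complement ATTGG.
SEL1L promoter: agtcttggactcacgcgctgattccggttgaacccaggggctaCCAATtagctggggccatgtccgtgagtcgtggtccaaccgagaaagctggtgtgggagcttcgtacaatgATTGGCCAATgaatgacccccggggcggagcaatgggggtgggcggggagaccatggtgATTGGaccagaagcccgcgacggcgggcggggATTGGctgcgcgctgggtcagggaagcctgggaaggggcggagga
DAAM1 promoter: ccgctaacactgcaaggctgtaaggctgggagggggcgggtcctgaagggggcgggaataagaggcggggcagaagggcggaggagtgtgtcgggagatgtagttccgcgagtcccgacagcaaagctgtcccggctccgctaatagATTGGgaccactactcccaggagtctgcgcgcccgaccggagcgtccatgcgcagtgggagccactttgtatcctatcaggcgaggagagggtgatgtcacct

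The ER stress element ERSE (CCAAT and CCACG with 9 free bases between them), ERSE-II (ATTGG and CCACG with 1 free base between them), the UPR element UPRE (TGACGTGG) and the C/EBP-ATF response element CARE (TGATGNAA) were searched on both strands of such 250-base windows. They occurred in 0.074%, 0.051%, 0.612% and 3.14% of 35116 RefSeq promoters. Windows were found for 48 of the 61 panel genes. None of these 4 elements was in the windows of the 8 higher genes, and the only match among the 48 was CARE in PLK3, which was not called. Both parts of ERSE were then counted on their own, after the sequences had been seen. CCAAT, the first part, which is also contained in ERSE-II as ATTGG, occurred 5 times in SEL1L and once in DAAM1. Of all promoters 112 (0.319%) held 5 or more. HIST1H2BM, a panel gene that was not called, also held 5, starting 236, 181, 153, 118 and 77 bases upstream. E2F7, which was called lower, held CCAAT starting 229, 167, 86 and 54 bases upstream. At least 1 CCAAT was present in 4 of 8 higher, 6 of 16 lower and 12 of 24 uncalled genes with a window, against 32.0% of all promoters. CCACG, the second part, was present in 6 of 8 higher, 9 of 16 lower and 5 of 24 uncalled genes, against 33.5% of all promoters. A match here is a run of letters in the window, and its absence says nothing of a factor that binds elsewhere.

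DAAM1, a formin that builds actin filaments downstream of Wnt signals, was the second largest rise. It had −1.78 and −1.55 in thapsigargin, against −2.51 and −2.99 in the acetonitrile vehicle, and again both thapsigargin samples lay above all 18 vehicle samples. The log2 difference was 1.08 ± 0.22 (SE, n = 2 each, limma adjusted p = 9.57e-05), a 2.12-fold rise, with 1.52 against the EtOH vehicle and 1.79 against the 7 other vehicles. Thapsigargin gave the highest mean level of the 38 conditions. Tunicamycin, with −3.60 and −3.22, lay below thapsigargin and below the EtOH vehicle, which had −3.15 and −3.21.

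Of the 6 panel genes grouped as receptor and small GTPase signalling, 4 were higher and 1 was lower, where 13.1% of the panel was higher and 34.4% lower. Their median log2 difference was 0.80, against −0.52 over the panel. The group was drawn up with earlier results of these data known, so its share is no test of a pathway. PTGER4, a prostaglandin E2 receptor that raises cAMP, had −5.19 and −5.17 in thapsigargin and −5.99 and −6.40 in the acetonitrile vehicle, a log2 difference of 1.01 ± 0.19 (SE, adjusted p = 4.18e-05). RAPGEF2, an exchange factor that activates Rap GTPases, had −3.12 and −3.04 in thapsigargin and −3.83 and −4.10 in the acetonitrile vehicle, a difference of 0.88 ± 0.14 (SE, adjusted p = 2.34e-06). For both genes the acetonitrile vehicle was among the low vehicles. PTGER4 lay 0.66 and RAPGEF2 0.42 below the mean of the 7 others, so that against that mean the rise came to 0.36 for PTGER4 and 0.46 for RAPGEF2, still called. Against DMSO, RAPGEF2 was not called (0.29, adjusted p = 0.0813). The highest vehicle condition had a mean of −4.425 for PTGER4 and −2.755 for RAPGEF2, above both thapsigargin samples in each gene.

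CBLB, a ubiquitin ligase that restrains lymphocyte activation, rose under each choice of vehicle. It had −0.76 and −0.77 in thapsigargin, against −1.36 and −1.62 in the acetonitrile vehicle, a log2 difference of 0.72 ± 0.16 (SE, adjusted p = 2.17e-04). The difference was 1.16 against the EtOH vehicle and 1.08 against the 7 others. Thapsigargin was the highest of the 38 conditions for CBLB, and both samples were above all 18 vehicle samples. The same was true of LRRFIP2, which has been tied to Wnt and Toll-like receptor signalling, with −0.73 and −0.72 in thapsigargin and −0.94 and −1.41 in the acetonitrile vehicle. Its difference of 0.45 ± 0.18 (SE, adjusted p = 0.0392) was the smallest of the 8, and the call was lost without thapsigargin replicate 1 (0.45, adjusted p = 0.0951), without thapsigargin replicate 2 (0.44, adjusted p = 0.126) or without acetonitrile replicate 2 (0.22, adjusted p = 0.404).

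**Figure D3:**
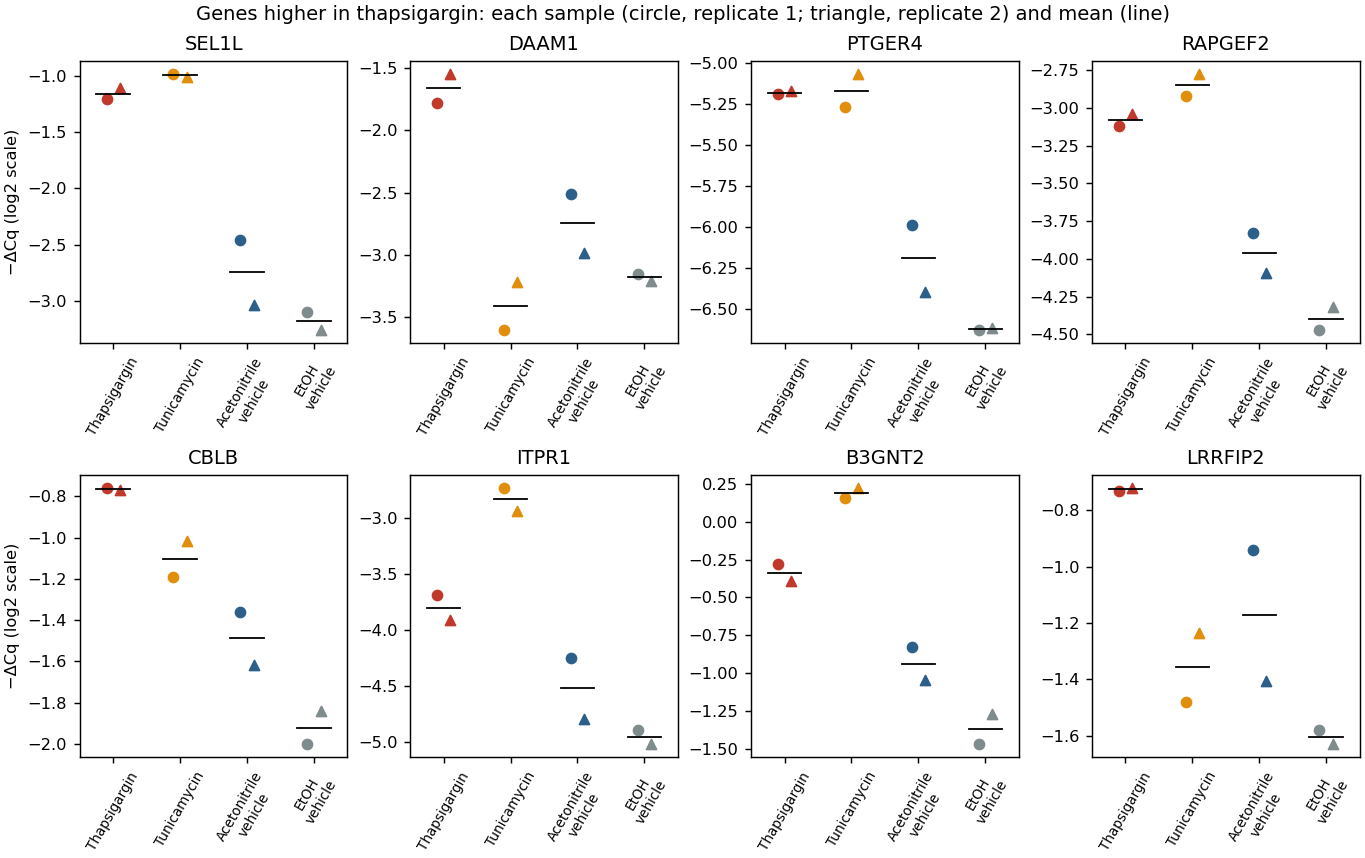
The −ΔCq (y, log2 scale) of the 8 genes called higher in each sample of thapsigargin, tunicamycin, the acetonitrile vehicle and the EtOH vehicle (x), with the mean of the 2 samples as a line. In every panel both thapsigargin points lie above all 4 vehicle points, and DAAM1 is the gene in which tunicamycin lies below both vehicles' means.

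Of the 2 calcium and inositol phosphate genes 1 was higher, where 13.1% of the panel was, and 1 was not called. ITPR1, the inositol trisphosphate receptor through which calcium leaves the ER, had −3.69 and −3.91 in thapsigargin, against −4.25 and −4.80 in the acetonitrile vehicle. The log2 difference was 0.72 ± 0.25 (SE, n = 2 each, adjusted p = 0.0170), a 1.65-fold rise, with 1.16 against the EtOH vehicle and 0.75 against the 7 others. The call was lost without thapsigargin replicate 1 (0.61, adjusted p = 0.0958) and without acetonitrile replicate 2 (0.45, adjusted p = 0.232), and against DMSO the difference was 0.54 (adjusted p = 0.0724). The NaOH vehicle reached −3.33, above both thapsigargin samples. ITPKC, a kinase that phosphorylates inositol trisphosphate, had −3.85 and −3.78 in thapsigargin and −3.86 and −4.11 in the acetonitrile vehicle, a difference of 0.17 ± 0.18 (SE, adjusted p = 0.476) that was not called, though it was called against the EtOH vehicle (0.60, adjusted p = 0.00951).

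The 4 genes of the ER and of glycosylation split evenly, 2 higher and 2 lower, where 13.1% of the panel was higher and 34.4% lower, and their median was −0.06. Beside SEL1L, B3GNT2, which extends N-acetyllactosamine chains, was higher, with −0.28 and −0.39 in thapsigargin and −0.83 and −1.05 in the acetonitrile vehicle. Its log2 difference of 0.60 ± 0.11 (SE, adjusted p = 2.11e-05) came to 1.04 against the EtOH vehicle and 0.63 against the 7 others. The highest vehicle condition had a mean B3GNT2 level of 0.655, above both thapsigargin samples. GXYLT1, which adds xylose to Notch, was lower, with −4.08 and −4.37 in thapsigargin and −3.19 and −3.67 in the acetonitrile vehicle. Its difference was −0.80 ± 0.16 (SE, adjusted p = 9.71e-05), but −0.37 against the EtOH vehicle (adjusted p = 0.0847). Against the 7 others it was −0.40 and called (adjusted p = 0.00619). EI24, an ER membrane protein induced by p53, was lower against the acetonitrile vehicle, with a difference of −0.72 ± 0.20 (SE, adjusted p = 0.00232), and gave −0.29 against the EtOH vehicle (adjusted p = 0.278). Against the 7 others EI24 gave −0.29 and was not called (adjusted p = 0.101).

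**Figure D4:**
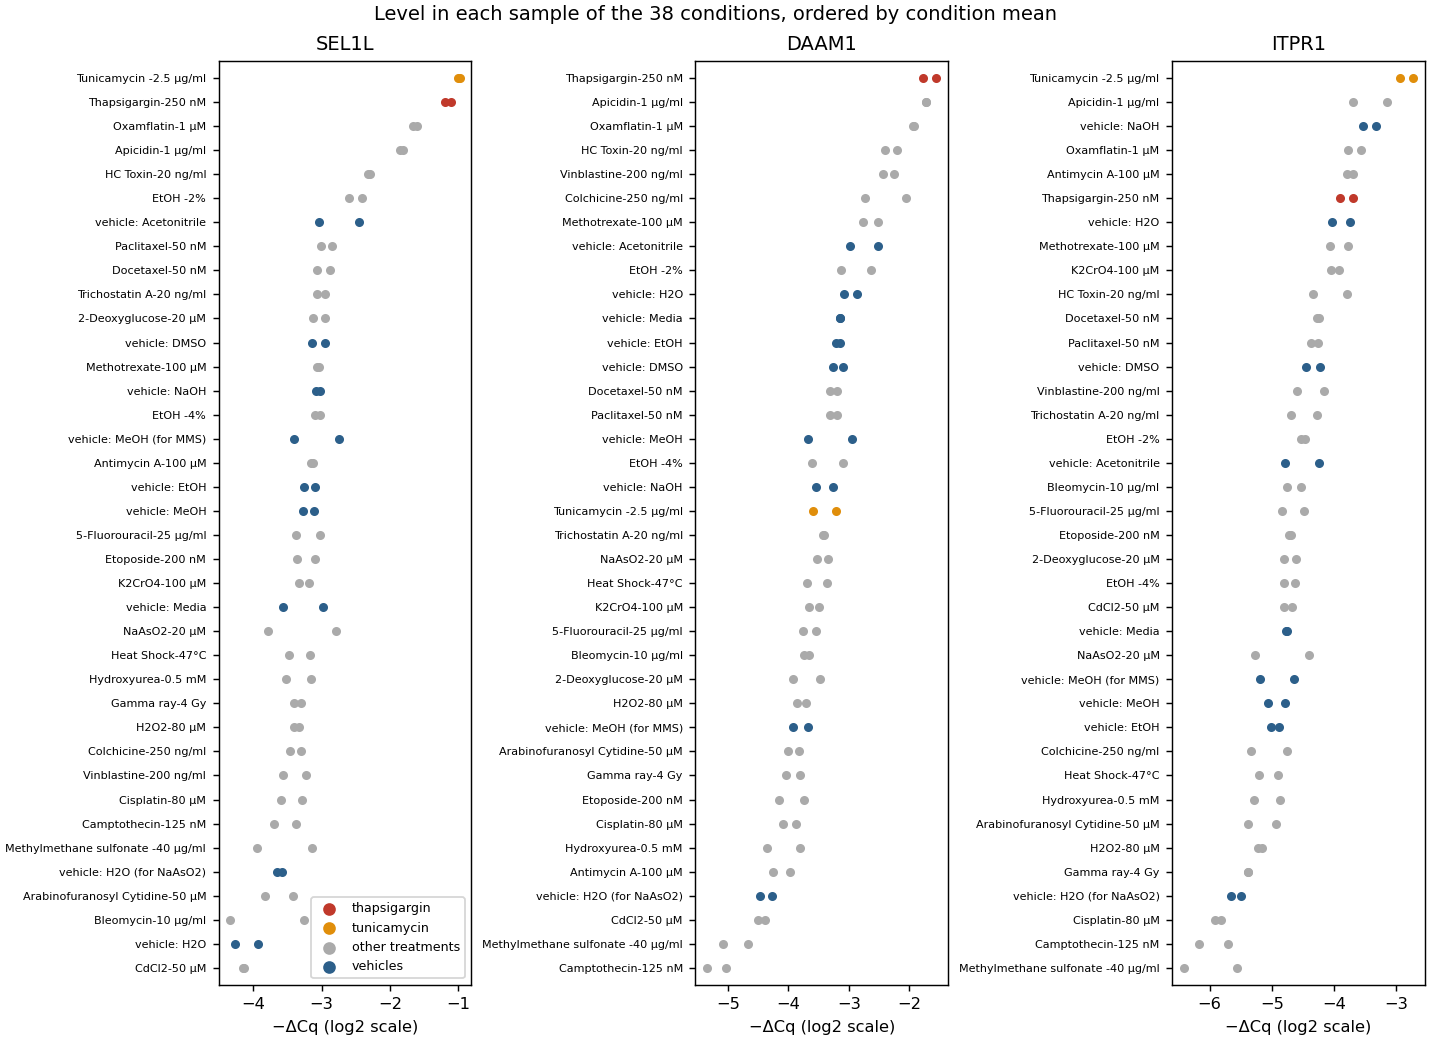
The −ΔCq (x, log2 scale) of SEL1L, DAAM1 and ITPR1 in both samples of each of the 38 conditions (y, ordered by condition mean). Thapsigargin is second for SEL1L, first for DAAM1 and sixth for ITPR1, and tunicamycin is first for SEL1L and ITPR1 but in the middle of the range for DAAM1.

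The atypical E2F repressors, which hold down genes of S phase, were lower against the acetonitrile vehicle, the EtOH vehicle and the mean of the 7 others. E2F7 had −3.88 and −3.91 in thapsigargin, against −2.56 and −2.93 in the acetonitrile vehicle, the lowest mean of the 38 conditions and below all 18 vehicle samples. Its log2 difference was −1.15 ± 0.19 (SE, n = 2 each, adjusted p = 3.74e-06), with −0.72 against the EtOH vehicle and −0.91 against the 7 others. E2F8 had −3.67 and −3.49 in thapsigargin, against −2.16 and −2.49 in the acetonitrile vehicle. Its difference was −1.26 ± 0.19 (SE, adjusted p = 1.05e-06), with −0.83 against the EtOH vehicle and −0.996 against the 7 others. For E2F8 the lowest of the 18 vehicle samples, at −3.64, lay between the 2 thapsigargin samples. Of the 5 cell cycle and centriole genes 3 were lower and 0 higher, at an adjusted and at an unadjusted p under 0.05 in limma, where 34.4% of the panel was lower, and their median was −0.56, against −0.52 over the panel. Besides the E2F genes these included CENPE, a kinetochore motor, with a difference of −0.56 ± 0.13 (SE, adjusted p = 3.27e-04), which gave −0.13 against the EtOH vehicle (adjusted p = 0.480). Against the 7 others CENPE also gave −0.13 and was not called (adjusted p = 0.257).

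MEX3B and AMER1 were also lower against the acetonitrile vehicle, the EtOH vehicle and the mean of the 7 others. MEX3B, an RNA-binding protein, had −6.93 and −7.14 in thapsigargin, against −5.13 and −5.61 in the acetonitrile vehicle, the lowest mean of the 38 conditions and below all 18 vehicle samples. Its difference was −1.67 ± 0.44 (SE, adjusted p = 0.00193), with −1.24 against the EtOH vehicle and −1.37 against the 7 others. AMER1, which curbs Wnt signalling by acting on β-catenin, had −4.71 and −4.74 in thapsigargin and −3.30 and −3.63 in the acetonitrile vehicle, a difference of −1.26 ± 0.14 (SE, adjusted p = 2.17e-09). It was −0.83 against the EtOH vehicle and −0.72 against the 7 others. The lowest vehicle condition had a mean AMER1 level of −4.82, below both thapsigargin samples. Of the 4 RNA processing genes 3 were lower, MEX3B, COIL (−0.82 ± 0.19, adjusted p = 3.27e-04) and RBM12B (−0.92 ± 0.36, adjusted p = 0.0315), where 34.4% of the panel was lower, and only MEX3B was called against the EtOH vehicle. COIL, the scaffold of Cajal bodies, gave −0.39 there (adjusted p = 0.105) and RBM12B gave −0.49 (adjusted p = 0.318). Against the 7 others COIL gave −0.47 and was called (adjusted p = 0.00549), and RBM12B gave −0.41 and was not (adjusted p = 0.201). The call of RBM12B was also lost without acetonitrile replicate 1 (−0.72, adjusted p = 0.234) or either thapsigargin sample (−0.86 and −0.98).

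HIST1H2BG was the lowest gene and has its own Cq values in the acetonitrile vehicle. Its −ΔCq was −5.51 and −5.26 in thapsigargin, −4.96 and −5.13 in tunicamycin, −3.47 and −3.09 in the acetonitrile vehicle and −1.87 and −1.84 in the EtOH vehicle. The conditions did not overlap, and the 2 vehicles stood farther apart than the replicates of either. The log2 difference was −2.11 ± 0.29 (SE, n = 2 each, adjusted p = 2.54e-07) against the acetonitrile vehicle, −3.53 against the EtOH vehicle and −2.46 against the 7 others. The means of the vehicle conditions ranged from −5.37 to −1.62. The lowest of these means lay between the 2 thapsigargin samples, as did the lowest of the 18 vehicle samples, at −5.47.

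The other 7 histone genes behaved otherwise, since the thapsigargin replicates lay far apart. HIST1H2BB, a replication-dependent H2B gene like most of them, had −0.28 and −2.90 in thapsigargin and −0.08 and −0.71 in the acetonitrile vehicle. HIST1H3D had 0.53 and −1.61 in thapsigargin, against 0.60 and 0.06. In all 7 the thapsigargin samples differed by more than 1, and replicate 2 minus replicate 1 had a median of −1.80 over the 8 histone genes, against −1.43 in tunicamycin and −0.59 in the acetonitrile vehicle. Histone transcripts rise and fall with S phase, and the share of cells in S phase was not measured here. None of the 7 was called in limma, also at an unadjusted p under 0.05, with log2 differences from −1.20 to −0.76. With the replicate number as a block 3 of them were called lower, HIST1H1E (−1.05, adjusted p = 6.31e-04), HIST1H2BB (−1.20, adjusted p = 0.0351) and HIST1H2BI (−0.92, adjusted p = 0.0251).

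**Figure D5:**
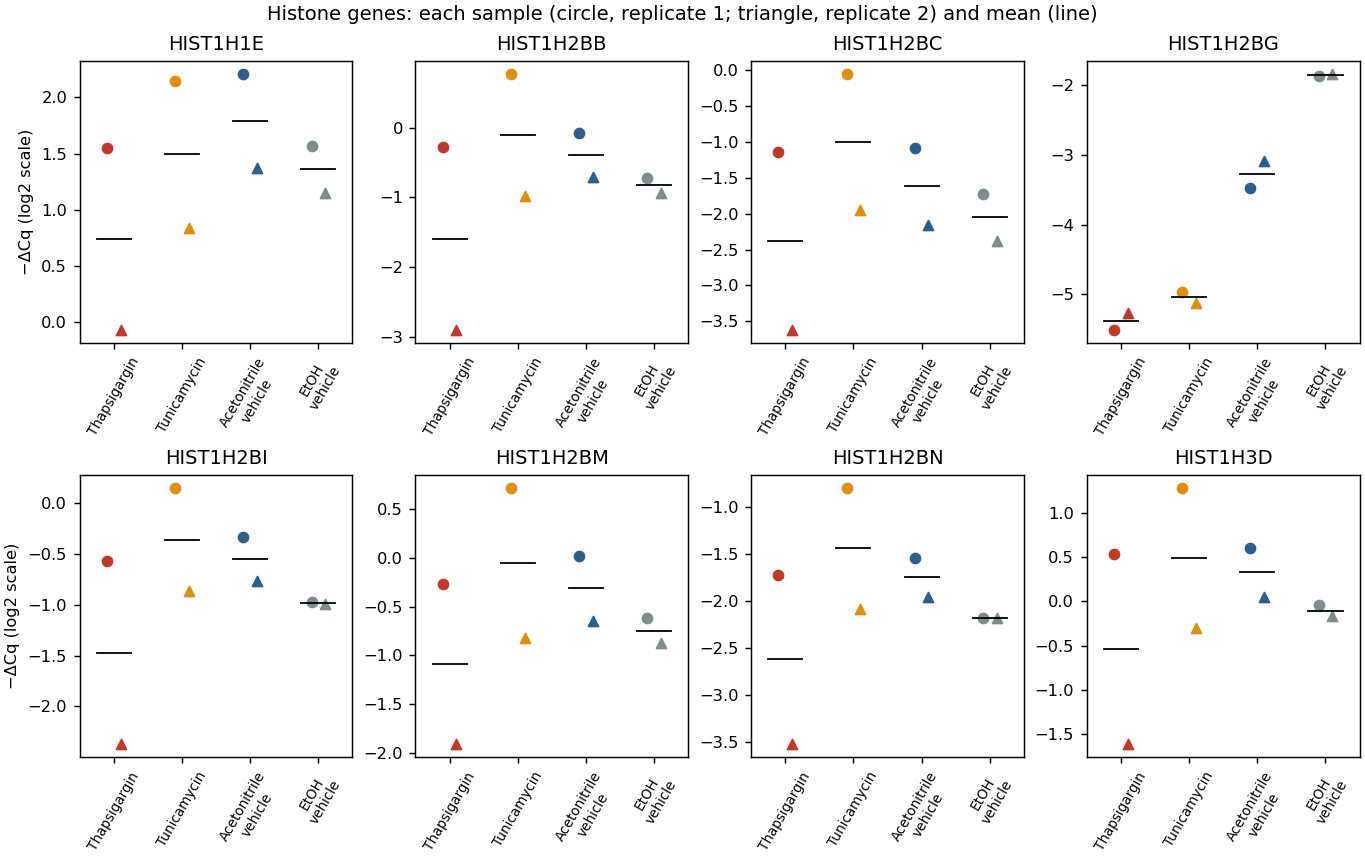
The −ΔCq (y, log2 scale) of the 8 histone genes in each sample of thapsigargin, tunicamycin, the acetonitrile vehicle and the EtOH vehicle (x), with the mean of the 2 samples as a line. Replicate 2 of thapsigargin is the lowest point in 7 panels, with replicate 1 near the vehicles, and HIST1H2BG is the panel in which both thapsigargin samples are low.

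No target of p53 was called higher against the acetonitrile vehicle. Of 22 such genes 0 were higher, 7 were lower and 15 were not called in limma, 0 higher and 9 lower at an unadjusted p under 0.05, with a median of −0.36, against −0.52 over the panel. The share called lower was near that of the panel, 34.4%. The 7 were E2F7, EI24, LCE1E, FBXO22, C12orf5, TRIAP1 and RPS27L. RPS27L gave −0.60 (adjusted p = 0.0306), lost its call in the fits without thapsigargin replicate 1 (−0.66), thapsigargin replicate 2 (−0.54) or acetonitrile replicate 1 (−0.45), and gave −0.17 against the EtOH vehicle (adjusted p = 0.613). Against the mean of the 7 other vehicles RPS27L gave −0.04 and was not called (adjusted p = 0.865). Of the 22 genes, 2 were higher against the EtOH vehicle, CDKN1A and GADD45A, and 3 were lower, with a median of −0.14. Against the 7 others CDKN1A and PLK3 (0.39, adjusted p = 0.0229) were called higher. C12orf5, E2F7, TP53I3 and TRIAP1 were called lower there, and the median was −0.16. CDKN1A, the cyclin-dependent kinase inhibitor p21, had −0.57 and −0.64 in thapsigargin and −0.65 and −1.04 in the acetonitrile vehicle. Both thapsigargin samples were above all 18 vehicle samples, the highest of which reached −0.65. Its difference of 0.24 was not called, but it was 0.67 against the EtOH vehicle and 0.61 against the 7 others, where it was called. TP53I3, also among the 22, had −8.18 and −8.17 in thapsigargin, below all 18 vehicle samples, and −7.50 and −7.67 in the acetonitrile vehicle. Its difference of −0.59 was not called (adjusted p = 0.144), nor was −0.16 against the EtOH vehicle (adjusted p = 0.711). Against the 7 others TP53I3 was called lower (−0.80, adjusted p = 0.00863).

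GADD45A, a growth arrest gene that answers both DNA damage and ER stress, overlapped with its vehicle. It had −0.93 and −0.89 in thapsigargin and −0.80 and −1.28 in the acetonitrile vehicle, a log2 difference of 0.13 ± 0.20 (SE, adjusted p = 0.613), and 0.56 against the EtOH vehicle (adjusted p = 0.0269). The study used the concentrations of earlier work, chosen there by cell viability and by the induction of CDKN1A, GADD45A and ATF3. CDKN1A and GADD45A are therefore no independent readout of the exposure. MDM2, the ligase that degrades p53, had −2.54 and −2.50 in thapsigargin and −2.38 and −2.37 in the acetonitrile vehicle, from its own Cq values, and was not called (−0.15, adjusted p = 0.607). PPM1D, a phosphatase that switches p53 signalling off and also has its own Cq values, overlapped between the conditions (−0.07, adjusted p = 0.778). TRIAP1, a small p53-induced mitochondrial protein with its own Cq values, was lower, with a difference of −0.61 ± 0.23 (SE, adjusted p = 0.0315) and levels of −2.14 and −2.12 in thapsigargin and −1.50 and −1.55 in the acetonitrile vehicle. Its call was lost when any 1 of the 4 samples was left out (−0.63 to −0.59, adjusted p from 0.0786 to 0.135).

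Of 6 early stress response genes 2 were lower and 0 higher (3 lower and 0 higher at an unadjusted p under 0.05 in limma), a share near the 34.4% of the panel that was lower. CEBPD, a transcription factor of the acute response, was read late, at −11.63 and −11.50 in thapsigargin and −10.55 and −10.77 in the acetonitrile vehicle, a log2 difference of −0.91 ± 0.30 (SE, adjusted p = 0.0136). Against the EtOH vehicle it was −0.48 (adjusted p = 0.263), and against the mean of the 7 other vehicles −0.32 (adjusted p = 0.252). ID2, an inhibitor of helix-loop-helix factors, was lower, with a difference of −0.39 (adjusted p = 0.0383), and gave 0.04 against the EtOH vehicle. Against the mean of the 7 other vehicles ID2 gave −0.35 and was called (adjusted p = 0.013). The call of CEBPD was lost without thapsigargin replicate 1 (−0.84, adjusted p = 0.0663) or acetonitrile replicate 1 (−0.80, adjusted p = 0.108), and that of ID2 without acetonitrile replicate 1 (−0.26, adjusted p = 0.307) or either thapsigargin sample (−0.44 and −0.34). LCE1E, a gene of the cornified envelope of keratinocytes that p53 can induce, had −8.76 and −8.60 in thapsigargin and −7.57 and −8.04 in the acetonitrile vehicle. Its difference of −0.88 ± 0.21 (SE, adjusted p = 5.19e-04) came to −0.45 against the EtOH vehicle (adjusted p = 0.0977). Against the mean of the 7 other vehicles LCE1E gave −0.30 and was not called (adjusted p = 0.111). ACTA2, a smooth muscle actin, was not called (−0.10, adjusted p = 0.626).

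Thapsigargin and tunicamycin were compared in 2 ways, as the difference between each agent's effect over its own vehicle and as the difference between the agents' levels. The first rests on the acetonitrile vehicle and called 16 genes, 2 higher and 14 lower in thapsigargin (26.2% of the panel, 3.28% higher and 23.0% lower). The second uses no vehicle and called 13 genes, 5 higher and 8 lower. For the 50 genes with repeated values the first difference is the second minus 0.43, so both are 1 comparison apart from that constant, a call in both is no added support, and the excess of lower calls in the first moves with the constant. With the replicate number as a block the first called 25 genes, with 0 calls lost. The first count fell to 4 without acetonitrile replicate 1, to 10 without thapsigargin replicate 1 and to 10 without tunicamycin replicate 2. Because the vehicles share Cq values, the effects over the vehicles are not independent of each other, and their values are given side by side. The fit takes the vehicles as independent, so for these 50 genes the SEs, intervals and p-values of the first difference are not reliable.

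SEL1L did not differ detectably between the agents. Its effect was 1.59 in thapsigargin and 2.19 in tunicamycin, the effects differed by −0.60 (95% interval −1.34 to 0.15, adjusted p = 0.224), and the levels differed by −0.16 (−0.69 to 0.36, adjusted p = 0.652). PTGER4 behaved likewise, with effects of 1.01 in thapsigargin and 1.46 in tunicamycin and levels that differed by −0.01 (−0.40 to 0.38). For CBLB the effects were 0.72 in thapsigargin and 0.82 in tunicamycin, and the levels differed by 0.34 (0.02 to 0.65, adjusted p = 0.126). RAPGEF2 had effects of 0.88 in thapsigargin and 1.55 in tunicamycin, a called difference of −0.67 (adjusted p = 0.0101), but its levels were not called different (−0.23, −0.51 to 0.05, adjusted p = 0.242).

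ITPR1 and B3GNT2 were lower in thapsigargin than in tunicamycin. ITPR1 had −3.69 and −3.91 in thapsigargin, against −2.73 and −2.94 in tunicamycin, with effects of 0.72 in thapsigargin and 2.12 in tunicamycin. The effects differed by −1.40 (95% interval −2.12 to −0.68, adjusted p = 0.00356) and the levels by −0.97 (−1.48 to −0.46, adjusted p = 0.00501). Without acetonitrile replicate 1 the difference of effects was −1.13 and not called (adjusted p = 0.0765). B3GNT2 had effects of 0.60 in thapsigargin and 1.56 in tunicamycin, with a difference of effects of −0.96 (adjusted p = 1.54e-05) and of levels of −0.53 (−0.75 to −0.31, adjusted p = 5.91e-04). GADD45A followed the same order, with effects of 0.13 in thapsigargin and 1.24 in tunicamycin and levels that differed by −0.68 (−1.09 to −0.27, adjusted p = 0.0141).

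DAAM1 went the other way. Its effect was 1.08 in thapsigargin and −0.23 in tunicamycin, where it was not called (adjusted p = 0.504). The effects differed by 1.31 (95% interval 0.68 to 1.94, adjusted p = 0.00205) and the levels by 1.74 (1.30 to 2.19, adjusted p = 5.15e-08), the largest called difference of levels between the agents. LRRFIP2 also had the higher level in thapsigargin (0.63, 0.27 to 1.00, adjusted p = 0.0121), while its effects did not differ detectably (0.20, −0.32 to 0.72). PLK3, a stress kinase and p53 target, was higher in level in thapsigargin by 0.86 (0.48 to 1.24, adjusted p = 6.59e-04), with −3.89 and −3.87 in thapsigargin and −4.82 and −4.67 in tunicamycin. Its effects were −0.11 in thapsigargin and −0.54 in tunicamycin and did not differ detectably (adjusted p = 0.224).

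Among the lower genes, AMER1, E2F7, TRIAP1 and HIST1H2BG were also lower in tunicamycin than in the EtOH vehicle, by −0.72, −0.53, −0.80 and −3.19 on the log2 scale, in a comparison that called 27.9% of the panel, 18% higher and 9.84% lower. CENPE and ID2 were higher there, by 0.47 and 0.55. Between the agents, CENPE differed in level by −0.59 (95% interval −0.85 to −0.34, adjusted p = 5.91e-04), E2F8 by −0.54 (−0.92 to −0.16, adjusted p = 0.0382), ID2 by −0.51 (adjusted p = 0.0180) and GXYLT1 by −0.45 (adjusted p = 0.0453), all lower in thapsigargin. C12orf5, which encodes the fructose bisphosphatase TIGAR, was lower as well, with a difference of −0.56 (adjusted p = 0.0453), and has its own vehicle values.

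The other lower genes included SMAD5, FBXO22, BRMS1L, TM7SF3 and TOPORS. SMAD5, which carries BMP signals, had −2.87 and −2.84 in thapsigargin and −2.00 and −2.48 in the acetonitrile vehicle, a log2 difference of −0.62 ± 0.17 (SE, adjusted p = 0.00312). FBXO22, a ubiquitin ligase subunit, gave −0.69 (adjusted p = 7.57e-04), BRMS1L −0.53 (adjusted p = 0.00654) and TM7SF3 −0.54 (adjusted p = 0.0397). Against the mean of the 7 other vehicles SMAD5 gave −0.33 and was called (adjusted p = 0.0337), while FBXO22, BRMS1L and TM7SF3 were not called. None of these 4 was called against the EtOH vehicle, where they lay between −0.26 and −0.10, and all 4 lost the call without acetonitrile replicate 1. TOPORS, a ubiquitin and SUMO ligase with its own vehicle values, had −3.54 and −3.43 in thapsigargin and −3.09 and −2.80 in the acetonitrile vehicle, and both thapsigargin samples lay below all 18 vehicle samples. Its difference of −0.54 ± 0.17 (SE, adjusted p = 0.00992) was −0.73 against the 7 other vehicles (adjusted p = 8.71e-06) and −0.39 against the EtOH vehicle (adjusted p = 0.0847), and the call was lost without thapsigargin replicate 1 (−0.49, adjusted p = 0.0656) or acetonitrile replicate 2 (−0.40, adjusted p = 0.135). Of the 3 genes of AMP-activated kinase and metabolism 1 was lower, where 34.4% of the panel was, namely C12orf5 (−0.61, adjusted p = 0.0142). Its 4 leave-one-out fits gave −0.62 to −0.60 with adjusted p from 0.0529 to 0.0638.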

How the data were processed

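RNA of TK6 cells was reverse transcribed and read on custom TaqMan arrays. The authors deposited 1 Cq for each sample and gene, for 61 genes, HPRT and GUSB, and all 76 samples were used. The supplement shows an alternate TaqMan assay for some genes, and states that 1 assay was kept according to biomarker performance. The second deposited table holds the authors' own fold changes over the vehicle of the same replicate number and was not used.

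The −ΔCq values were fitted in limma 3.58.1 (R 4.3.3) with 1 coefficient for each of 38 conditions (38 residual degrees of freedom). The Benjamini-Hochberg adjustment covered all 61 genes. SEs, 95% intervals and p-values reflect the spread between the 2 biological replicates of all conditions, not the spread between vehicle conditions. Exact permutation of 2 against 2 samples cannot give a two-sided p under 0.333. Depth has no counterpart in Cq data. The script was tested on simulated data with independent samples and no repeated Cq values, so that test does not cover the repeated vehicle values. Motifs and figures were made in Python 3.11.15 with matplotlib 3.10.9.

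Genes were named as the 10 highest and 10 lowest called differences without overlap, all calcium and ER members, CDKN1A, GADD45A, TNFRSF17 and up to 6 genes with the largest called difference from tunicamycin. Others were named after their values were seen. Members, lists and tests were chosen with earlier results of these data known. Symbols of 58 of the 61 genes matched RefSeq.

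The study's methods state that agent and solvent were run together on 2 occasions, and the authors' fold changes pair equal replicate numbers, so the number was also fitted as a block. Deviations of same-numbered thapsigargin and acetonitrile samples correlated at 0.54 over the 61 genes and at 0.22 over the 11 with their own vehicle Cq. Alternatives covered the reference genes, the vehicle, left-out samples and genes, the replicate block, the samples in the fit, robust moderation and the Holm adjustment.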

Additional observations from a re-analysis of the deposited data

Results flagged for a closer look

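The test of the difference called 16 genes, of which the 6 named for the largest differences are given here. In these the effect of thapsigargin over the acetonitrile vehicle differed from that of tunicamycin over the EtOH vehicle (limma, adjusted over 61 genes), and all 6 but HIST1H2BG rest on repeated vehicle Cq values. The fit takes the vehicles as independent, so the SEs and p-values of the genes with repeated values are not reliable. The log2 difference of the effects was −1.40 ± 0.36 (SE, adjusted p = 0.00356) for ITPR1. It was 1.31 ± 0.31 (SE, adjusted p = 0.00205) for DAAM1. GADD45A gave −1.12 ± 0.29 (SE, adjusted p = 0.00356). For CENPE the value was −1.03 ± 0.18 (SE, adjusted p = 2.99e-05), and for E2F8 it was −0.97 ± 0.27 (SE, adjusted p = 0.00592). HIST1H2BG gave 1.08 ± 0.41 (SE, adjusted p = 0.0485), a difference between falls of −2.11 in thapsigargin and −3.19 in tunicamycin, and without a vehicle the levels of the agents differed by −0.34 (95% interval −0.93 to 0.25, adjusted p = 0.397), in the opposite direction. Leaving out 1 sample gave 0.89 to 1.27 for HIST1H2BG, called only without acetonitrile replicate 2. Without acetonitrile replicate 1 the differences of ITPR1 (−1.13), GADD45A (−0.88) and E2F8 (−0.81) were not called, with adjusted p of 0.0765, 0.0774 and 0.0831. With the panel median in place of HPRT and GUSB, DAAM1 (1.87) and HIST1H2BG (1.64) were still called among the 6.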

How the results depend on the processing

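Of the calls against the acetonitrile vehicle (29 genes, 8 higher and 21 lower), the lower ones moved most. With the panel median in place of HPRT and GUSB, 18 genes were called (13 higher, 5 lower). With no reference gene, a setting chosen after seeing the data, 10 were called (7 higher, 3 lower). HPRT alone gave 7 higher and 21 lower, and GUSB alone 8 higher and 17 lower. The EtOH vehicle gave 13 higher and 7 lower, and the DMSO vehicle 9 higher and 16 lower. The mean of all 9 vehicles gave 13 higher and 14 lower, and the mean of the 7 others 14 higher and 13 lower. The 11 genes with their own vehicle Cq gave 4 calls (0 higher, 4 lower), and Holm adjustment 18 (12 lower). Leaving out 1 sample gave 19 to 25 calls, 6 to 8 higher and 11 to 19 lower. Among the named genes SEL1L, DAAM1, PTGER4 and CBLB (higher) and HIST1H2BG, AMER1 and E2F8 (lower) kept their direction and call in all 19 alternatives. The difference from tunicamycin, 16 genes, gave 10 with HPRT alone, 4 with the panel median, 2 with no reference gene and 4 to 18 when 1 sample was left out.

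With the replicate number as a block the counts against the acetonitrile vehicle were 35 (8 higher, 27 lower) in all samples and 27 (6 higher, 21 lower) in the 4 samples alone, and the difference from tunicamycin gave 25. In all samples the block ended 0 calls. In the 4 samples alone B3GNT2 (adjusted p = 0.0776), LRRFIP2 (0.196) and CENPE (0.103) were not called.

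GADD45A lay between −0.11 and 0.37 when 1 sample was left out, negative without acetonitrile replicate 2, and at −0.11 against DMSO. TNFRSF17 (−0.15) was positive with the panel median (0.31), with no reference gene (0.20), when 1 sample was left out (−0.42 to 0.12, positive without acetonitrile replicate 1), against the EtOH vehicle (0.29), against all 9 vehicles (0.88), the 7 others (1.11) and DMSO (1.11). The HIST1H2BG difference from tunicamycin was −0.34 without a vehicle. The cause was not tested. Having only 2 samples per condition limits the precision of each value.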
